A study of Gallus gallus with 51 samples.

Results

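The basic leucine zipper (bZIP) transcription factors of the chicken cochlea were followed after hair cell loss, on arrays of human transcription factor probes. They were the probes whose gene name begins with JUN, FOS, BATF, ATF1 to ATF7, CREBL, CREM, CEBP, MAF, NFE2 or BACH, or is XBP1, DDIT3, HLF, DBP, TEF, NFIL3 or one of CREB2 to CREB5. This rule took 37 of the 1509 gene probes, 1 probe per gene. By name they fell into 7 AP-1 factors, 11 ATF/CREB factors, 4 CEBP factors, 10 MAF/CNC factors and 5 others, of which DBP, HLF and TEF belong to the PAR group. The rule reads names and no measured value, but it was set with earlier results of these data known.

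The tissue was the sensory epithelium of the cochlea of posthatch White Leghorn chicks, cultured with neomycin, an aminoglycoside that kills hair cells, or without it. Neomycin cultures were collected at the end of the treatment (0 hr) or after 24 hr or 48 hr of recovery in medium without the drug, and each was set against control cultures of the same age that never received neomycin. Each of the 51 two-colour arrays paired neomycin RNA with control RNA of its own recovery time, 17 at 0 hr, 16 at 24 hr and 18 at 48 hr, and they came from 9 biological replicates, 3 per recovery time. A replicate was RNA from several epithelia, amplified before labelling, and the sources used here do not give the number of chicks behind it. A lower signal cannot be told apart from fewer cells of a type or less RNA per cell.

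A bZIP factor holds its DNA site with a basic stretch and pairs with another bZIP factor through a leucine zipper, so that the activity of each depends on which partners the cell contains. JUN and FOS proteins form AP-1, an immediate early response to growth factors and stress. ATF4, DDIT3, XBP1 and ATF6 act in the unfolded protein and integrated stress responses, CEBP factors in differentiation and inflammation, and NFE2L1 and NFE2L2, with small MAF partners and against BACH repressors, in proteasome and antioxidant gene expression. HLF, DBP and TEF are outputs of the circadian clock, which NFIL3 opposes.

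The array names were those of human genes. Of the 37 names, 24 were symbols in the RefSeq table of the chicken assembly GRCg7b used here, and 13 (FOSB, FOSL1, JUNB, ATF5, ATF6, CREB3, CREBL1, CEBPE, DDIT3, BACH2, NFE2, NFE2L3 and DBP) were not listed there. Without probe sequences it could not be checked which chicken transcript each human probe binds, so a member's name here is that of its probe. Median spot signals ranged between 460 and 3636 in Cy3 and between 262 and 3190 in Cy5 over the 51 arrays, and saturated spots were seen among the members only for JUNB, ATF4 and CEBPG. The share of spots not above their local background had a median of 2.9% in Cy3 and 8.2% in Cy5, and reached 81.5% and 89.0%. In Cy5 it lay between 58.5% and 89.0% on the arrays of 0 hr replicate 1. On those of 24 hr replicate 1 it lay between 34.6% and 75.9% in Cy5, so values of these replicates rest on weak signal. The tissue was checked with short marker lists. None of the 4 hair cell probes (POU4F3, ATOH1, GFI1, BARHL1) and none of the 5 supporting cell probes exceeded the negative controls in 80% of the array channels at any time. POU4F3, a hair cell factor, exceeded them in 20.6%, 25% and 55.6% of channels at 0, 24 and 48 hr. Its log2 ratio of neomycin over control was 0.15, 0.03 and -0.79 at these times (limma, unadjusted p = 0.00884 at 48 hr). The other hair cell probes did not follow it at 48 hr, with ATOH1, GFI1 and BARHL1 at 0.003, -0.11 and -0.18 (limma, unadjusted p between 0.174 and 0.982). SOX2, a supporting cell factor, had log2 ratios of 0.04, -0.99 and 0.11 (unadjusted p = 0.00814 at 24 hr). The other supporting cell probes did not follow it at 24 hr, with GATA3 at 0.31 and PROX1, HEY1 and SOX10 at -0.07, -0.15 and -0.07. PMX1, a stromal factor, read -0.67, -1.02 and -0.15 (unadjusted p = 0.0106 at 24 hr), beside 0.36 for FOXC1, -0.05 for POU3F4 and -0.24 for TBX18 among the other stromal probes at 24 hr. POU4F1, a neuronal factor, was the 1 marker detected, at 0 and 48 hr, and exceeded the controls in 88.2%, 40.6% and 100% of channels. The other neuronal probes did not follow it. NEUROD1 exceeded the controls in 8.82%, 12.5% and 38.9% of channels, and ISL1 in 8.82%, 6.25% and 2.78%. No marker passed an adjusted p of 0.05, and the part of cell composition in the members' values was not tested.

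Few bZIP probes gave a signal that stood clear of the negative controls. A probe counted as above the negative controls on an array channel when it was brighter than the 95th percentile of their spots there, and as detected at a recovery time when 80% or more of the channels passed. The rule pooled the channels of all replicates of a time, so a replicate with more arrays weighed more. By this rule 2 members were detected at 0 hr (JUNB and CEBPB), 1 at 24 hr (JUNB) and 1 at 48 hr (NFE2L1). These were 5.41%, 2.7% and 2.7% of the 37 members, beside 4.77%, 1.72% and 3.84% of all 1509 gene probes. JUNB, an AP-1 subunit, exceeded the controls on 17 of 17 arrays with neomycin RNA and 17 of 17 with control RNA at 0 hr, and on 16 of 16 in both RNAs at 24 hr. At 48 hr it did so on 11 of 18 arrays in neomycin RNA and on 16 of 18 in control RNA. This shortfall lay in replicate 1, where JUNB was above the controls on 1 of 8 arrays in neomycin RNA and 6 of 8 in control RNA, while replicates 2 and 3 were above them on every array in both RNAs.

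CEBPB, a leucine zipper factor of acute-phase and wound responses, exceeded the controls on 14 of 17 arrays in both RNAs at 0 hr. In replicate 3 of 0 hr it did so on only 1 of 4 arrays in neomycin RNA and 2 of 4 in control RNA. At 24 hr CEBPB did so on 9 of 16 arrays in neomycin RNA and 3 of 16 in control RNA, and at 48 hr on 6 of 18 in neomycin RNA and 3 of 18 in control RNA. Its detection was uneven between replicates, since at 48 hr all of these arrays came from replicate 2. NFE2L1, the regulator of proteasome genes, exceeded the controls on 10 of 17 arrays in neomycin RNA and 17 of 17 in control RNA at 0 hr. In replicate 1 of that time it did so on 1 of 7 arrays in neomycin RNA and 7 of 7 in control RNA. NFE2L1 was above them on 7 of 16 arrays in neomycin RNA and 4 of 16 in control RNA at 24 hr, and on 14 of 18 in neomycin RNA and 15 of 18 in control RNA at 48 hr. Its detection at 48 hr rested on replicates 1 and 2, where every array passed in both RNAs. In replicate 3 of 48 hr NFE2L1 passed on 0 of 4 arrays in neomycin RNA and 1 of 4 in control RNA.

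The next most often detected members stood between these and the background. JUN exceeded the controls on 12 of 17 arrays in neomycin RNA and 11 of 17 in control RNA at 0 hr, CREM, a cAMP-responsive modulator, on 10 of 17 in both, and ATF4, the effector of the integrated stress response, on 11 of 16 in neomycin RNA and 12 of 16 in control RNA at 24 hr. XBP1 did so on 12 of 18 arrays in neomycin RNA and 13 of 18 in control RNA at 48 hr. The JUN and CREM counts leaned on 0 hr replicate 1, where both passed on 7 of 7 arrays in both RNAs. In replicate 2 JUN passed on 2 of 6 arrays in neomycin RNA and 4 of 6 in control RNA, and CREM on 1 and 2. In replicate 3 JUN passed on 3 of 4 and 0 of 4, and CREM on 2 and 1. At the other end, FOS, CREB3 and TEF exceeded the controls on no array in either RNA at any time, as did 73 of all gene probes (4.84%, beside 8.11% of members). At 24 hr 14 of the 37 members exceeded them on no array (37.8%, beside 23.9% of all gene probes), with 5 at 0 hr (13.5%, beside 17.2%) and 7 at 48 hr (18.9%, beside 18%). Members above the controls in only 1 of the RNAs numbered 6 at 0 hr, 2 at 24 hr and 4 at 48 hr, and the largest bound on the difference between their RNAs, for DDIT3 at 0 hr, was 0.002 on the log2 scale, so no fold is given for them as a bound. A ratio of a probe that neither RNA lifts above the controls is a ratio of signals within the range of the negative controls.

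**Figure D1:**
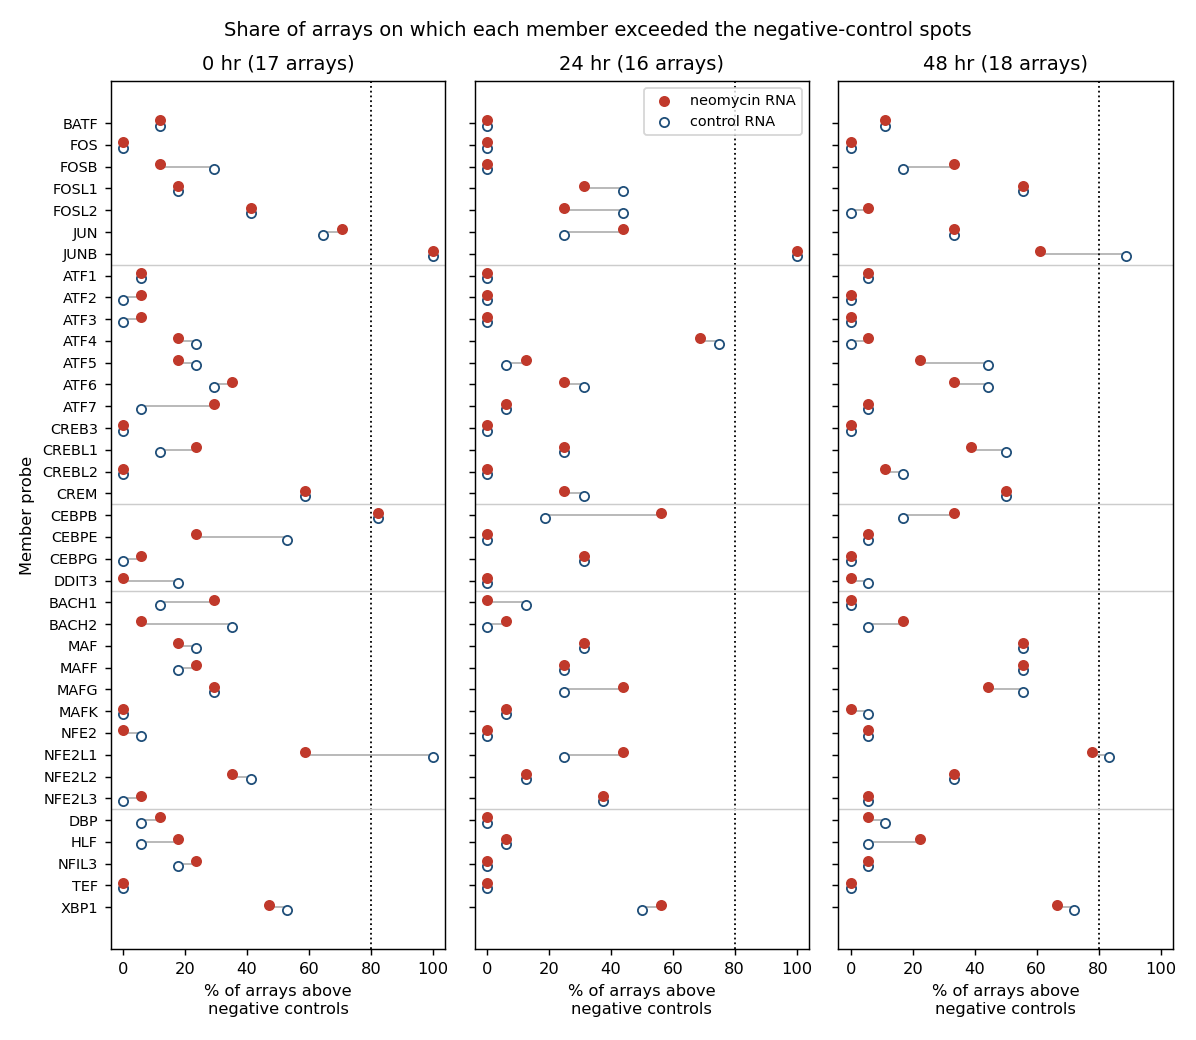
Share of arrays (x axis, %) on which each of the 37 bZIP probes (y axis, grouped by subfamily) was brighter than the 95th percentile of the negative controls in that channel, for neomycin RNA (filled) and control RNA (open), with 1 panel per recovery time and the 80% limit dotted. JUNB stands at 100% in both RNAs at 0 and 24 hr, and NFE2L1 at 0 hr at 58.8% in neomycin RNA and 100% in control RNA.

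For the comparison of neomycin with control, log2 ratios of neomycin over control were taken on every array, and each biological replicate gave 1 value per probe. After the dimmest 15% of gene probes were left out, 1282 were tested with limma, among them 30 of the 37 members. The 7 dim members were ATF1, ATF2, CREB3, BACH1, MAFK, NFE2 and TEF. At an adjusted p under 0.05, 0% of the probes and none of the 30 members were called at 0 hr, 24 hr or 48 hr, over all times, or in any contrast between times. By recovery time (0, 24 and 48 hr), the smallest adjusted p of any member came to 1, 0.588 and 0.784.

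At an unadjusted p under 0.05, 0 of 30 members were called at 0 hr, beside 2.96% of all probes tested. At 24 hr 1 member was (ATF4), beside 8.35% of all probes, and at 48 hr none, beside 4.52%. Over all times 2 members were (JUNB and HLF), beside 10.3%. In the contrasts none were, beside 1.33% for 24 hr minus 0 hr, 3.98% for 48 hr minus 24 hr and 1.48% for 48 hr minus 0 hr. The members' shares were below those of the array as a whole, but with 30 members each rests on 2 calls at most. Whether these shares differ was not tested.

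Agreement between replicates was low among the members. At 0 hr none of the 30 members had the same sign in 3 of 3 replicates, beside 23.2% of all probes tested. At 24 hr 4 did (13.3%, beside 26.8%), of which ATF3, FOS and DBP were above 0 and ATF4 below 0. At 48 hr 2 did (6.67%, beside 30.5%), with HLF above 0 and NFE2L2 below 0. Whether the members' shares differ from those of the array was not tested.

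**Figure D2:**
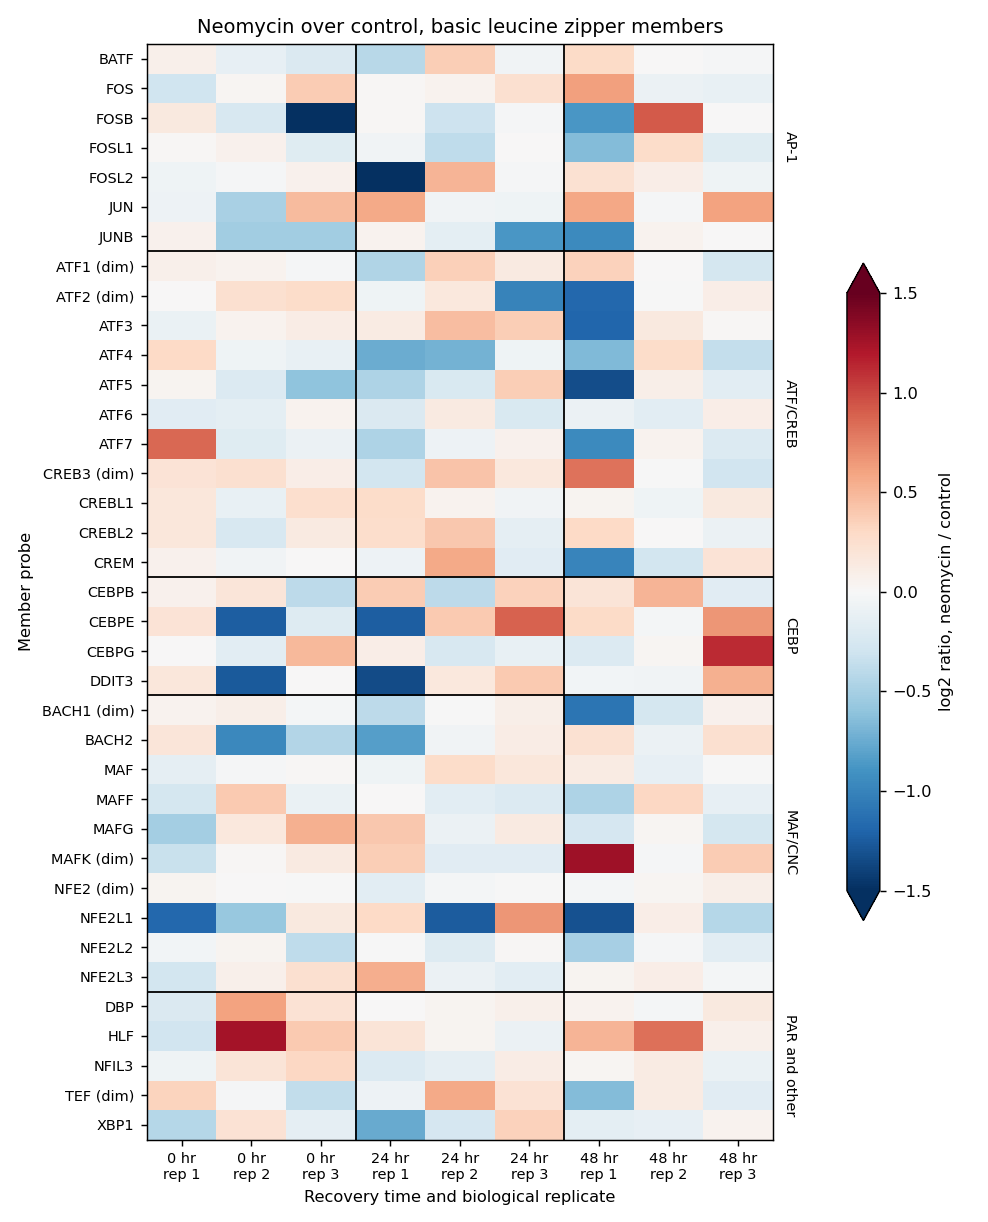
Log2 ratio of neomycin over control (colour scale, clipped at -1.5 and 1.5) of each of the 37 bZIP probes (y axis, grouped by subfamily) in the 9 biological replicates (x axis), with the 7 probes left out as dim marked. Blue and red cells stand in different replicates of 1 time for most probes, as for NFE2L1 at 24 hr, and BACH2, CEBPE and DDIT3 share their low cells at 0 hr replicate 2 and 24 hr replicate 1.

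Among the AP-1 factors, JUNB had log2 ratios of 0.06, -0.53 and -0.52 in the 3 replicates of 0 hr, 0.06, -0.15 and -0.88 at 24 hr, and -0.96, 0.05 and 0.01 at 48 hr. The values lay near 0 in 5 replicates and below -0.5 in the other 4, at least 1 of which fell at each time. The mean over the 9 replicates was -0.32 ± 0.41 (SD), a 1.25-fold lower signal in neomycin RNA, with limma p = 0.0414 unadjusted and 0.471 adjusted. The replicates with low values were low across their arrays: JUNB was below 0 on 6 of 6 arrays of 0 hr replicate 2, on 4 of 4 of 24 hr replicate 3 and on 8 of 8 of 48 hr replicate 1. In 0 hr replicate 3 the 4 arrays spread between -2.76 and 0.59. Without 48 hr replicate 1 the mean at 48 hr was 0.03, and without 24 hr replicate 3 the mean at 24 hr was -0.05.

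JUN, the main partner of the FOS proteins, read -0.07, -0.49 and 0.48 at 0 hr, 0.56, -0.06 and -0.06 at 24 hr, and 0.58, -0.02 and 0.61 at 48 hr. Its mean at 48 hr was 0.39 ± 0.36 (SD, n = 3), with 2 of 3 replicates above 0.5. For this mean limma gave p = 0.0908 unadjusted and 0.784 adjusted. In those 2 replicates JUN exceeded the negative controls on 0 of 8 and 0 of 4 arrays in either RNA. In replicate 2 of 48 hr, at -0.02, it did so on 6 of 6 arrays in both RNAs. The high value of 24 hr replicate 1 was shared by all 8 of its arrays. In 48 hr replicate 3 a single array read 2.61, and the other 3 arrays lay between -0.49 and 0.21.

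FOS, the immediate early AP-1 subunit, had log2 ratios of -0.30, 0.03 and 0.38 at 0 hr, 0.02, 0.05 and 0.24 at 24 hr, and 0.62, -0.09 and -0.11 at 48 hr. These are ratios of signals that never exceeded the negative controls, and no FOS mean at the 3 times passed the test (limma, unadjusted p between 0.443 and 0.842). The largest single values of the subfamily belonged to other FOS relatives and stood in 1 replicate each, and they are named here after their values were seen. FOSL2 read -2.13 in 24 hr replicate 1, below 0 on 8 of 8 arrays, beside 0.51 and -0.02 in the other replicates of 24 hr. The size of this FOSL2 value was not shared by all arrays. Arrays 4 and 5 with neomycin RNA in Cy5 read -0.24 and -0.17, and the others lay between -3.23 and -1.39. FOSB read -1.95 in 0 hr replicate 3, beside 0.15 and -0.24 in the others. The arrays behind this FOSB value disagreed, at -3.93 on the array with neomycin RNA in Cy3 and between -2.26 and 3.80 on the 3 with it in Cy5. BATF stayed within 0.5 of 0 in all 9 replicates, and FOSL1 did so in all but 48 hr replicate 1, at -0.65.

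Among the ATF/CREB factors, ATF4 at 24 hr had the smallest p of any member at a single time. Its log2 ratios were 0.30, -0.06 and -0.12 at 0 hr, -0.75, -0.71 and -0.07 at 24 hr, and -0.67, 0.27 and -0.36 at 48 hr. All 3 replicates of 24 hr were below 0, while those of 0 hr and 48 hr lay on both sides. The mean at 24 hr was -0.51 ± 0.38 (SD, n = 3), a 1.42-fold lower signal in neomycin RNA. For this mean limma gave p = 0.0275 unadjusted and 0.588 adjusted. The difference of 24 hr minus 0 hr was -0.55 with an SE of 0.28 (limma, unadjusted p = 0.0772, adjusted p = 0.998).

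The ATF4 value of 24 hr replicate 1 was an average of opposite readings. The 3 arrays with neomycin RNA in Cy3 averaged -2.45 and the 5 with it in Cy5 averaged 0.95, so that 3 arrays were below 0 and 5 above it. Replicate 2 did not show this, with averages of -0.83 and -0.60 and 4 of 4 arrays below 0. A like split stood at 48 hr replicate 1, with -1.39 for Cy3 and 0.06 for Cy5. ATF4 was above 0 in 2 and below 0 in 7 of the 9 replicates.

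ATF3, a stress-induced partner of JUN proteins, read -0.11, 0.06 and 0.11 at 0 hr, 0.13, 0.46 and 0.37 at 24 hr, and -1.19, 0.14 and 0.01 at 48 hr. Its mean at 24 hr was 0.32 ± 0.17 (SD, n = 3). The limma p of this mean was 0.18 unadjusted. ATF3 had the smallest p among members for 48 hr minus 24 hr, at -0.66 with an SE of 0.31 (limma p = 0.0606 unadjusted, 0.848 adjusted). That difference rested on 1 replicate: without 48 hr replicate 1 it was -0.24. ATF3 exceeded the negative controls on no array at 24 or 48 hr, in either RNA.

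ATF7, a stress kinase target that pairs with JUN and FOS proteins, read 0.86, -0.18 and -0.09 at 0 hr, -0.47, -0.08 and 0.07 at 24 hr, and -0.95, 0.05 and -0.20 at 48 hr. It had the smallest p among members for 48 hr minus 0 hr, at -0.57 with an SE of 0.33 (limma p = 0.121 unadjusted, 0.998 adjusted). Without 0 hr replicate 1 this difference was -0.23 and without 48 hr replicate 1 it was -0.27. Among arrays quantified on the same date, 5 of 0 hr replicate 2 and 6 of 48 hr replicate 2, it was 0.26, of the opposite sign. That value sets 1 biological replicate against 1, and replicate 1 of either time is not in it. In both of these replicates ATF7 exceeded the negative controls on 0 of 6 arrays in either RNA. ATF2, the relative of ATF7 in the same AP-1 complexes, was left out of the test as dim, and read 0.01, 0.24 and 0.28 at 0 hr, -0.07, 0.16 and -1.0 at 24 hr, and -1.17, -0.00 and 0.10 at 48 hr.

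Replicate 1 of 48 hr set the subfamily apart from its other replicates. There 5 of the 8 ATF/CREB factors tested (ATF3, ATF4, ATF5, ATF7 and CREM) were below -0.5, beside 19.5% of all probes tested, and the subfamily median was -0.81. ATF5 was lowest at -1.33, below 0 on 8 of 8 arrays, and CREM read -0.99, below 0 on 7 of 8. In this replicate ATF3, ATF4, ATF7 and CREM exceeded the negative controls on 0 of 8 arrays in either RNA. Their low ratios there are ratios of signals within the range of the negative controls. ATF5 exceeded the controls on 1 of 8 arrays in neomycin RNA and 6 of 8 in control RNA. In replicates 2 and 3 of 48 hr no ATF/CREB factor was below -0.5, and the medians were 0.03 and -0.04. ATF6, CREBL1 and CREBL2 lay within 0.5 of 0 in all 9 replicates, as did the dim ATF1, and the dim CREB3 reached 0.82 in 48 hr replicate 1.

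**Figure D3:**
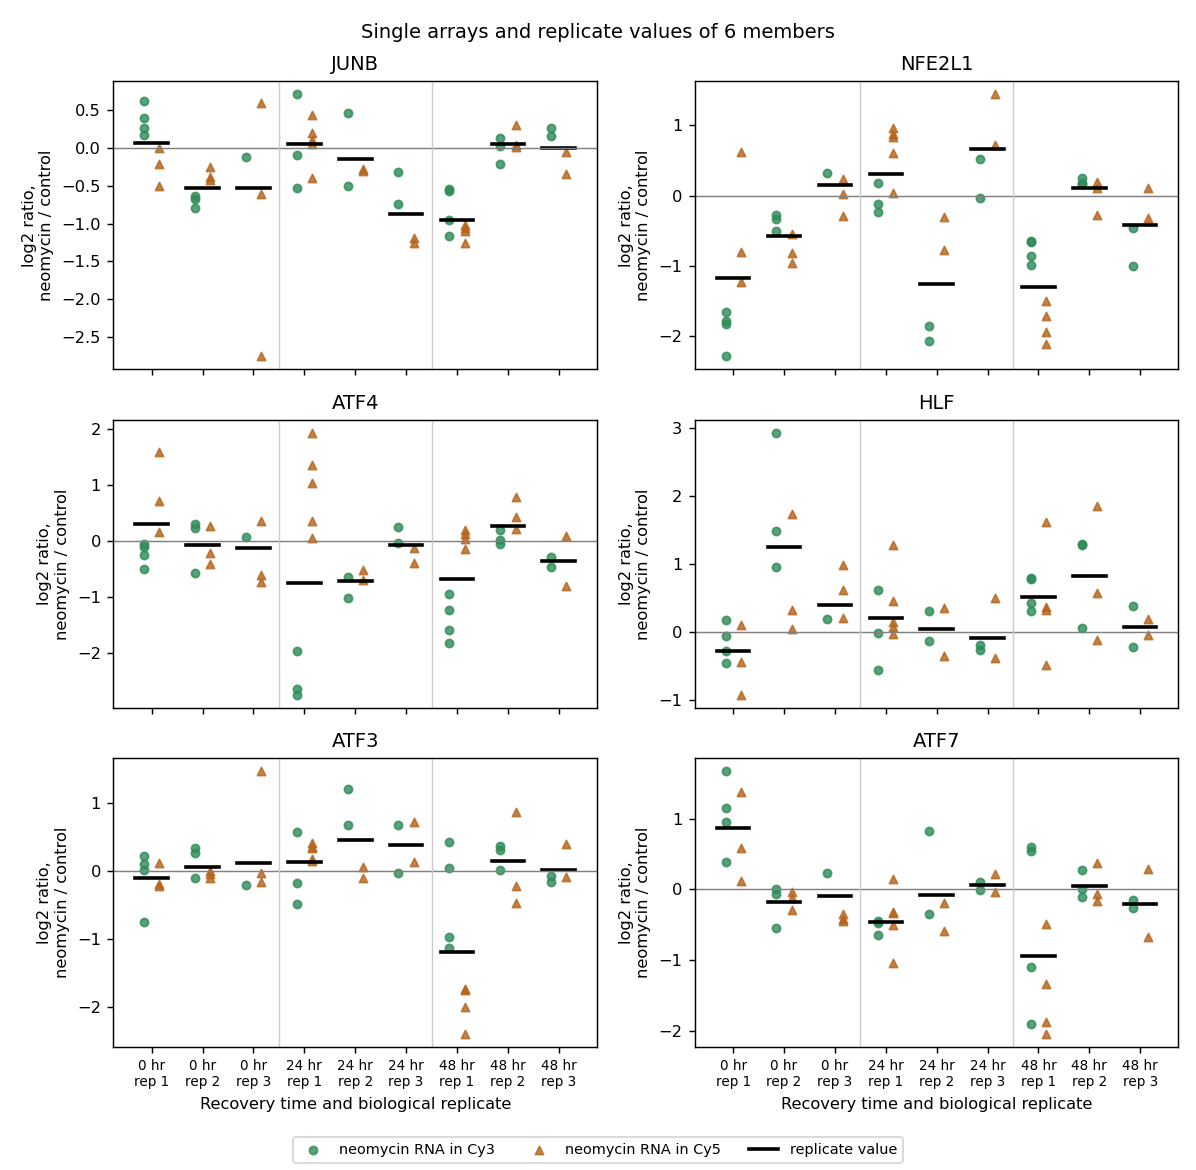
Log2 ratio of neomycin over control on each array (y axis) for 6 bZIP probes, by recovery time and biological replicate (x axis), with arrays carrying neomycin RNA in Cy3 as circles, in Cy5 as triangles, and the replicate value as a bar. ATF4 at 24 hr replicate 1 splits by dye, whereas JUNB at 48 hr replicate 1 is below 0 on all 8 arrays.

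Of the CEBP factors, CEBPB, the 1 detected, read 0.06, 0.19 and -0.39 at 0 hr, 0.38, -0.39 and 0.35 at 24 hr, and 0.20, 0.51 and -0.17 at 48 hr. Its replicates overlapped 0 at every time, with limma p between 0.374 and 0.808 unadjusted. CEBPG, a partner that lacks an activation domain, lay within 0.5 of 0 in 8 replicates and read 1.12 in 48 hr replicate 3.

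CEBPE, a factor of granulocyte maturation, and DDIT3, the stress-induced CHOP that dimerises with CEBP proteins, moved together over the replicates, and BACH2, a repressor of the MAF/CNC group, moved with them. These 3 were chosen after their values were seen. DDIT3 read 0.17, -1.27 and 0.01 at 0 hr, -1.35, 0.16 and 0.39 at 24 hr, and -0.05, -0.06 and 0.54 at 48 hr. CEBPE read 0.21, -1.24 and -0.19 at 0 hr, -1.23, 0.40 and 0.88 at 24 hr, and 0.29, -0.03 and 0.67 at 48 hr. Its value of 0.88 came from 1 array at 3.76, while the other 3 arrays of that replicate lay between -0.13 and -0.04. BACH2 read -0.97 in 0 hr replicate 2 and -0.82 in 24 hr replicate 1, and lay within 0.5 of 0 elsewhere. All 3 were thus low in 1 replicate of 0 hr and 1 of 24 hr, and no other replicate of any of them was below -0.5. In 0 hr replicate 2 each of them was below 0 on 6 of 6 arrays, whichever dye carried the neomycin RNA. Array counts above the negative controls ran the same way at 0 hr, with CEBPE above them in neomycin RNA on 4 of 17 arrays and in control RNA on 9, BACH2 on 1 and 6, and DDIT3 on 0 and 3. At 24 hr they did not. In replicate 1 all 3 exceeded the controls on 0 of 8 arrays in either RNA, so that their low ratios there are ratios of signals within the range of the negative controls. The arrays of 24 hr replicate 1 also disagreed. On arrays 4 and 5 with neomycin RNA in Cy5, DDIT3 read -0.002 and -0.05 and BACH2 -0.06 and 0.04. The other arrays lay between -2.32 and -1.23 for DDIT3 and between -1.28 and -0.61 for BACH2. CEBPE spread between -2.17 and 0.06 over the 8 arrays.

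Over the 9 replicates the Pearson correlation was 0.97 for CEBPE with DDIT3, 0.93 for BACH2 with CEBPE and 0.91 for BACH2 with DDIT3, the highest 3 of 435 pairs of tested members, whose median was 0.03. The values share arrays, and the 3 probes share a place on the slide: they were printed in rows 2, 3 and 4 of 1 of the 4 printed blocks. Over all tested probes, pairs in the same block at most 2 rows apart had a median correlation of 0.193, against -0.04 for pairs in different blocks. A set of 18 tested probes of those rows, with ATF5 and ATF7 of row 2 not among them, did not share the low values. Their median was -0.12 in 0 hr replicate 2 and -0.01 in 24 hr replicate 1, with 0 and 1 of 18 below -0.5. The mean of the 3 members correlated at 0.271 with the median of these 18. ATF5 and ATF7 read -0.21 and -0.18 in 0 hr replicate 2, and -0.46 and -0.47 in 24 hr replicate 1. With loess fitted within each printed block, a setting chosen after seeing the data, DDIT3 read -1.36 and -1.16 in these 2 replicates, CEBPE -1.32 and -1.11, and BACH2 -1.05 and -0.55, the last against -0.82 without it. The part of slide position in the shared pattern was not tested further. No CEBP factor passed the test at any time.

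**Figure D4:**
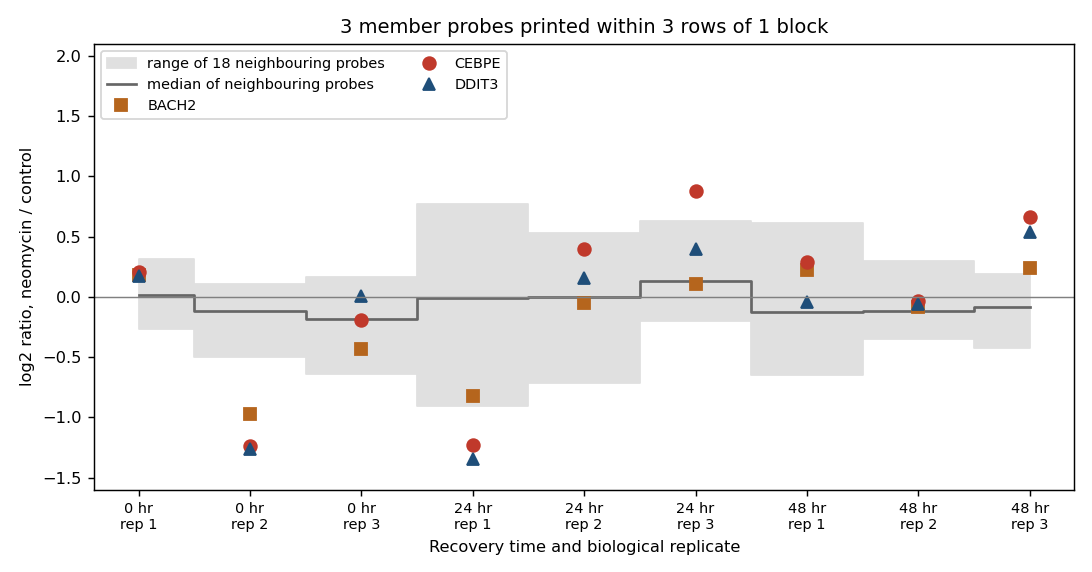
Log2 ratio of neomycin over control (y axis) of BACH2, CEBPE and DDIT3 in the 9 biological replicates (x axis). The line and shading give the median and range of 18 tested probes printed in the same rows, with ATF5 and ATF7 not among them. The 3 members lie below the range of these 18 probes at 0 hr replicate 2, and CEBPE and DDIT3 do so at 24 hr replicate 1.

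Among the MAF/CNC factors, NFE2L1 varied most between biological replicates. Its log2 ratios were -1.18, -0.57 and 0.15 at 0 hr, 0.30, -1.25 and 0.66 at 24 hr, and -1.30, 0.10 and -0.42 at 48 hr. Low and high replicates stood at every time, and the means of -0.53 ± 0.67, -0.10 ± 1.02 and -0.54 ± 0.71 (SD, n = 3 each) lay within 1 SD of 0. None passed the limma test (unadjusted p = 0.183, 0.802 and 0.177). Arrays of 1 replicate mostly had 1 sign. NFE2L1 was below 0 on 6 of 7 arrays of 0 hr replicate 1, on 6 of 6 of 0 hr replicate 2, on 4 of 4 of 24 hr replicate 2 and on 8 of 8 of 48 hr replicate 1, and above 0 on 6 of 8 of 24 hr replicate 1. The spread between arrays of 1 replicate and dye was 0.36 (SD), against 0.81 between biological replicates of 1 time. That array SD leaves out the gap between dyes. With neomycin RNA in Cy3 and in Cy5, NFE2L1 averaged -1.89 and -0.47 in 0 hr replicate 1. These averages were -1.96 and -0.54 in 24 hr replicate 2, and -0.79 and -1.82 in 48 hr replicate 1. The sign was the same in both dyes in 7 of 9 replicates. In a fit over single arrays with array weights, NFE2L1 at 0 hr was -0.84 with an SE of 0.21 (limma, adjusted p = 0.0129), and DDIT3 was -0.67 with an SE of 0.19 (adjusted p = 0.0392), where 4.06% of all probes were called. These calls were absent from the fit over replicates and from the same fit without weights.

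NFE2L2, the NRF2 factor of antioxidant genes, read -0.04, 0.04 and -0.38 at 0 hr, -0.01, -0.19 and 0.02 at 24 hr, and -0.50, -0.02 and -0.16 at 48 hr, below 0 in all 3 replicates of 48 hr. Its mean at 48 hr was -0.23 ± 0.24 (SD, n = 3), and without 48 hr replicate 1 it was -0.09. By limma the mean had p = 0.138 unadjusted and 0.784 adjusted. The small MAF partners showed no common direction. MAFG read -0.51, 0.16 and 0.53 at 0 hr and MAFF -0.27, 0.39 and -0.10, and both had values on either side of 0 at 24 hr. MAF and NFE2L3 stayed within 0.6 of 0 in all 9 replicates, the dim NFE2 stayed within 0.2 of 0, and of the other dim members MAFK reached 1.27 and BACH1 -1.09 in 48 hr replicate 1.

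HLF, a PAR factor of clock output, was the member with the smallest p at 0 hr and 48 hr. It read -0.29, 1.25 and 0.39 at 0 hr, 0.19, 0.04 and -0.09 at 24 hr, and 0.51, 0.82 and 0.07 at 48 hr. The 3 replicates of 48 hr were above 0, as were 2 of 3 at each of the other times. The mean was 0.45 ± 0.77 at 0 hr and 0.47 ± 0.38 at 48 hr (SD, n = 3 each). These means had limma p = 0.0969 and 0.0851 unadjusted and 1 and 0.784 adjusted. Over all times it was 0.32, a 1.25-fold higher signal in neomycin RNA, with limma p = 0.0462 unadjusted and 0.476 adjusted. Without 0 hr replicate 2 the mean at 0 hr was 0.05, and without 48 hr replicate 2 that at 48 hr was 0.29. HLF exceeded the negative controls on few arrays, 3 of 17 in neomycin RNA and 1 of 17 in control RNA at 0 hr, and 4 of 18 in neomycin RNA and 1 of 18 in control RNA at 48 hr.

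The other clock-linked members did not pass the test either. DBP read -0.22, 0.61 and 0.22 at 0 hr, 0.00, 0.04 and 0.08 at 24 hr, and 0.06, -0.03 and 0.14 at 48 hr. Its sign was that of HLF in each replicate of 0 hr and opposite in 24 hr replicate 3 and 48 hr replicate 2. NFIL3, the repressor at the same sites, stayed within 0.4 of 0 in all 9 replicates. XBP1, the unfolded protein response factor, ranged between -0.76 in 24 hr replicate 1 and 0.34 in 24 hr replicate 3, with means of -0.12, -0.22 and -0.07 at 0, 24 and 48 hr. The dim TEF ranged between -0.66 and 0.56.

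Taken by subfamily, medians moved with single replicates more than with recovery time. Over the 30 members the median log2 ratios of 0, 24 and 48 hr were -0.02, -0.07 and 0.02, beside -0.01, 0.00 and -0.02 over the 1252 other probes tested. Over replicates, the AP-1 median averaged -0.09 ± 0.10, -0.02 ± 0.03 and 0.09 ± 0.13 at 0, 24 and 48 hr (SD, n = 3 each). The ATF/CREB median averaged 0.00 ± 0.12, -0.04 ± 0.12 and -0.27 ± 0.46, and the MAF/CNC median -0.07 ± 0.17, 0.01 ± 0.10 and -0.12 ± 0.14. The CEBP median, over 4 tested members, averaged -0.23 ± 0.42, -0.08 ± 0.47 and 0.22 ± 0.33, and that of the PAR and other factors, also over 4, 0.14 ± 0.35, -0.02 ± 0.10 and 0.05 ± 0.01. The mean lay further from 0 than 1 SD only for PAR and other at 48 hr. The median absolute mean log2 ratio was 0.10, 0.11 and 0.15 for members at the 3 times, beside 0.10, 0.14 and 0.15 for the other probes.

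**Figure D5:**
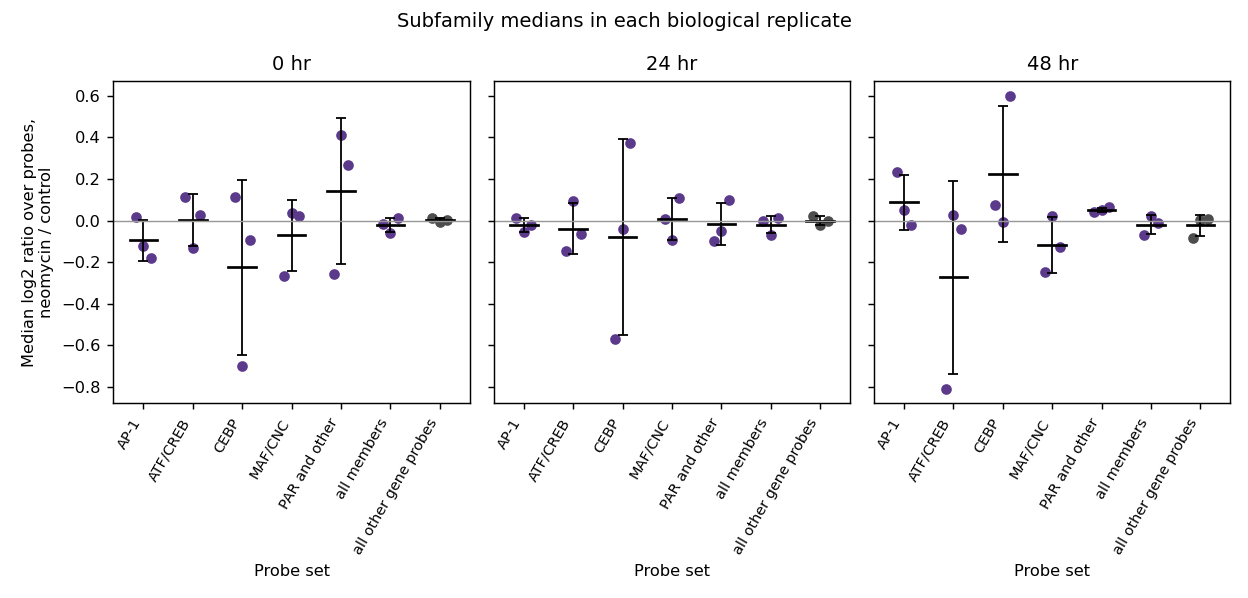
Median log2 ratio of neomycin over control (y axis) over the tested probes of each bZIP subfamily, of all 30 members and of the 1252 other gene probes (x axis), with 1 point per biological replicate, the mean as a line and the SD as a bar, and 1 panel per recovery time. The points of all members lie between -0.07 and 0.02, and the ATF/CREB point of 48 hr replicate 1 lies at -0.81.

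The spread between arrays and between replicates was larger than most differences between conditions. For the median member, the SD between arrays of 1 replicate and dye was 0.43 and that between biological replicates of 1 time 0.38, beside 0.40 and 0.29 for the other probes. The 2 dye orientations of a replicate had the same sign in 152 of 270 member values (56.3%, beside 55.7% for the other probes). Among members, ATF7, CEBPB, DDIT3, HLF and NFE2L1 had the same sign in both orientations in 7 of 9 replicates, and FOSL2 in 2 of 9.

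Genes that work with bZIP factors were read as a group of 15 partners, regulators or relatives under other names, among them CREB1, NRL, CREBBP, EP300, KIAA0132 (an older name of KEAP1), COPS5, MAPK8IP1, SRF, ELK1, ELK3, ELK4, EGR1, DRPLA and CROC4. Of the 14 tested, none had an unadjusted p under 0.05 at 0 hr or 48 hr, and 3 did at 24 hr, beside 8.35% of all probes tested at 24 hr. These were EGR1, an immediate early factor, at 0.29 (limma p = 0.0395), MAPK8IP1, a scaffold of the JUN kinase pathway, at -0.42 (p = 0.0424), and CROC4 at -0.53 (p = 0.00769). None passed an adjusted p of 0.05. At 24 hr EGR1, MAPK8IP1 and CROC4 exceeded the negative controls in 9.38%, 28.1% and 6.25% of array channels. CREB1, a founding member of the CREB group, read 0.19, 0.20 and -0.39 at 0, 24 and 48 hr. It was above the negative controls in 20.6%, 9.38% and 61.1% of array channels at these times.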

How the data were processed

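The authors quantified spot and local background intensity per dye with ImaGene and deposited these tables unnormalized. Their series matrix gave deposited log2 ratios that matched the uncorrected scanner values on 51 of 51 arrays. Arrays were oriented by the dye suffix of their labels, which the file headers also gave for neomycin on 51 arrays; 1 array named the same dye for both RNAs, and 6 named cochlea in place of the control. With R 4.3.3 and limma 3.58.1, signal means were corrected by normexp (offset 50) and loess-normalized, with control spots at weight 0. The 2 spots of a probe, the arrays of each dye orientation and then both orientations were averaged. The 19 negative-control and 8 mismatch probes and the dimmest 15% of gene probes (227) were left out. Time means and contrasts over 9 replicates were fitted with lmFit and eBayes, with Benjamini-Hochberg adjustment over 1282 probes. The number of biological replicates, 3 per recovery time, limits the precision. On simulated data for 48 hr over 1282 probes with independent errors, 100 probes were changed by 1 and 100 by 2 on the log2 scale. Of these, 89% and 99% were recovered. With so many changed probes the adjustment is more lenient than where few change, and no change below 1 was simulated. These shares therefore do not give the recovery of a single changed member or of smaller changes. The members and lists were chosen with earlier results of these data known. By the naming rule, replicate values were given for detected members, for the 3 largest changes of 1 sign per time and for the smallest p per comparison. They were also given for ATF2, ATF7, JUN and FOS, the members found on the study's AP-1 list. Further names were chosen after their values were seen. The fit reported did not pair samples across times by replicate number. Deviations of the same replicate number correlated between times at -0.161 to 0.0646. With the spread between arrays as large as that between replicates, these values cannot show whether the samples were paired. The labels call the replicates biological, and no label says how their cultures were separated. No sequences are shown, and 1 gene counted among the related genes is not reported here by name. Alternatives were other background, normalization, filter, averaging and fit settings, and each replicate left out.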

Additional observations from a re-analysis of the deposited data

Results flagged for a closer look

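In 18 comparisons of single arrays within a replicate (the median log2 ratio over members, and the percent of member probes above the negative controls averaged over both dyes), chance would mark about 0.9, and 2 arrays stood apart. On array 4 of 24 hr replicate 1 with neomycin RNA in Cy5, 31.1% of members exceeded the controls, beside 20.3% on the next array and 12.2% on the lowest of 8. On array 1 of 48 hr replicate 2 with neomycin RNA in Cy5 it was 52.7%, beside 39.2% on the next array and 35.1% on the lowest of 6. No member had 3 replicates above 0 at 1 time and 3 below 0 at another, in 90 comparisons of a member between times. Over all probes tested, 90 of 3846 such comparisons (2.34%) did. The 0 among members follows from the same-sign counts. At 0 hr no member had 1 sign in 3 of 3 replicates, and different members did so at 24 hr and at 48 hr.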

How the results depend on the processing

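Outside the t-test, 138 of 141 counts of members with an adjusted p under 0.05 were 0, as in the fit reported, over 7 comparisons and 24 settings. The other 3 were 2 members at 0 hr (NFE2L1 and DDIT3) and 1 over all times (JUNB, -0.29, beside 5.23% of all probes) with single arrays, the biological replicate as a random block and array weights, and 1 over all times (NFE2L1, -0.50) with arrays blocked at random by date of quantification, where 8.66% of all probes were called. The replicate number as a block, which left 0 members in each comparison, changed no call. A one-sample t-test on the replicate values was also run, which is not the methods' t-test on selected hybridizations filtered for a shared trend. At 1.2-fold with an unadjusted p under 0.05 it found 0 members at each time. Of all probes tested it found 1.09%, 2.26% and 1.25% at 0, 24 and 48 hr. After Benjamini-Hochberg adjustment it found 0 members and 0 of all probes at each time. Median ratios over members moved beyond their spread at 0 hr to -0.11 with median centring. At 24 hr they moved to -0.010 with median centring and 0.031 with background subtraction, and at 48 hr to -0.078 with background subtraction. Leaving out 1 replicate gave medians between -0.0598 and -0.0019 at 24 hr and between -0.0336 and 0.0223 at 48 hr. Detected members numbered 6, 3 and 8 at 0, 24 and 48 hr with 50% of array channels required (beside 14.1%, 6.16% and 20.7% of all gene probes). With the 99th percentile they numbered 1 at 0 hr and 0 at 48 hr (beside 1.79% and 1.59% of all gene probes). With local background subtracted 1 was detected at 0 hr (beside 4.31%). Without 1 replicate, 1 to 2 members were detected at 0 hr, 1 to 2 at 24 hr and 0 to 8 at 48 hr, the last being 8 without replicate 1 and 0 without replicate 2. The share over all gene probes is not given for these counts, so they do not set the members apart from the array. FOS at 24 hr changed sign, to -0.030, without background correction, and ATF4 in 24 hr minus 0 hr did so, to 0.16, with background subtraction. Loess within each printed block was chosen after seeing the data. The cause of these changes was not tested.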
